A study of Mus musculus with 6 samples.

Results

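The Bcl2 family decides at the mitochondrion whether a cell under stress survives or dies. Transcripts of 10 of its genes were measured in keratinocytes of mouse tail epidermis with and without Gpr161. The members were the rows of the deposited count table whose gene symbol was Bcl2, Bcl2l1, Bcl2l2, Mcl1, Bax, Bak1, Bcl2l11, Bbc3, Bmf or Bid. All 10 were found among the 19618 genes listed, and all 10 passed the filter on low counts that left 15422 genes for the test. RNA sequencing compared 3 libraries from epidermal knockout mice with 3 from control mice, all aged 4 months. The knockout mice carried K14cre, a Cre recombinase driven by the keratin 14 promoter of basal keratinocytes, and 2 floxed copies of Gpr161 (labelled Gpr161Flox-Homozygous). The control labels name no K14cre. Among the controls, 1 sample was Gpr161Flox-Homozygous and 2 were Gpr161Flox-Heterozygous, so every sample in the study carried at least 1 floxed copy. Cells of the epidermal suspension that never used the keratin 14 promoter would keep Gpr161. The labels do not say whether each library came from 1 mouse, so p-values measure the spread between these libraries.

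Proteins of the family fall into 3 classes. The antiapoptotic members BCL2, BCL-XL (from Bcl2l1), BCL-W (from Bcl2l2) and MCL1 hold the effectors BAX and BAK (from Bak1) in check. The effectors, once free, form pores in the outer mitochondrial membrane, cytochrome c leaves and caspases are activated. BH3-only members, here BIM (from Bcl2l11), PUMA (from Bbc3), BMF and BID, sense stress and bind the antiapoptotic proteins or activate the effectors. In skin, BCL2 is known from melanocytes, hair follicle cells and basal keratinocytes, and it has been described as a target of the GLI transcription factors of the Hedgehog pathway. Gpr161 is a ciliary receptor that restrains that pathway. BMF is known to be held at the cytoskeleton and to act in cells that lose their attachment.

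Library totals were 17157864 to 25344399 estimated counts, and levels are given as CPM, counts scaled to a common total with TMM factors (trimmed mean of M values). Libraries are named by the tag in their column: DE679, DE685 and DE688 are knockout, DE680, DE684 and DE689 control. Gpr161 itself did not differ detectably over the whole gene, at 28.8 ± 4.23 CPM in knockout and 31.4 ± 1.10 CPM in control libraries (SD, n = 3 each). The gene's counts thus give no check of the genotypes, and “knockout” here means a library labelled so. Among 5 Hedgehog targets, 4 were higher in the knockout past the threshold, with Gli1 at 69.4 ± 4.42 against 9.15 ± 0.857 CPM. Keratinocyte markers were abundant in all libraries: the 7 basal markers summed to 31115 to 34904 CPM in the knockout and 27093 to 32103 CPM in the control. Skeletal muscle markers summed to at most 3.11 CPM. DE685 and DE684 held Y-linked transcripts and the other 4 libraries Xist, so each group held 1 library of one sex and 2 of the other.

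Promoters are shown for Bcl2l11, whose window holds a forkhead motif, and for Bcl2, Bbc3 and Bmf. The latter 3 were the members whose knockout and control libraries did not overlap in CPM. Each is the stretch of 250 bases before the RefSeq start nearest the annotated gene start (GRCm38.p6), 5′ to 3′. The Bbc3 window lies within the annotated gene, which starts at 16308393, and holds no annotated exon. Capitals mark TGACG, the core of the cAMP response element, or TGTTTAC, a forkhead motif, on either strand.
Bcl2 promoter, chr1:106714291-106714540, minus strand: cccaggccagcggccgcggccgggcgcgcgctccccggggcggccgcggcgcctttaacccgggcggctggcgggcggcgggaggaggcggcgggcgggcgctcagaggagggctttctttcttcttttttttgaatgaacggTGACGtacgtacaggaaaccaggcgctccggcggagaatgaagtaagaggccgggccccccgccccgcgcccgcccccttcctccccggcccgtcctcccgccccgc
Bbc3 promoter, chr7:16309333-16309582, plus strand: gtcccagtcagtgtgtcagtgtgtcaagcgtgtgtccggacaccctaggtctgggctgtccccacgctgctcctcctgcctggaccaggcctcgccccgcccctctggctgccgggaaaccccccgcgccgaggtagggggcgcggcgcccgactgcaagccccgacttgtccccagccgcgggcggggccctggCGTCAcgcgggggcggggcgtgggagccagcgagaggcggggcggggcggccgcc
Bmf promoter, chr2:118549687-118549936, minus strand: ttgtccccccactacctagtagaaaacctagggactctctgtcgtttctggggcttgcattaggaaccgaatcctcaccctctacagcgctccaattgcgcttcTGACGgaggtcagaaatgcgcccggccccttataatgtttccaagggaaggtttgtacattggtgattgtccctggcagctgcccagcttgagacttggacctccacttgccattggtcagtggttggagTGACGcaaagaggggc
Bcl2l11 promoter, chr2:128125788-128126037, plus strand: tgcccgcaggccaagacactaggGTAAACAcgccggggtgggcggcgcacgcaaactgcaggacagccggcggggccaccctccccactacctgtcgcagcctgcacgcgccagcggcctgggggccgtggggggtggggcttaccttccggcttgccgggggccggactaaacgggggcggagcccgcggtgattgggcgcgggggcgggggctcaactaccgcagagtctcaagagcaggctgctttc
The motifs were picked after some of these sequences and the members' values had been seen, so the matches are only a description. TGACG lies once in the windows of Bcl2 and Bbc3, where the latter shows it as its reverse complement CGTCA, and 2 times in that of Bmf. It is in none of the windows nearest the start of the other 7 members. Counting all 17 windows that RefSeq gives for the 10 members, 3 hold TGACG (17.6%), against 17.8% of all 32851 windows of this length. Among genes tested, the knockout libraries were higher without overlap for 12% of those with TGACG in a window and for 13.8% of those without. TGTTTAC is in 2 of the 17 windows, 1 of Bcl2l11 and another of Bbc3, and in 3.17% of all windows. The Gli motif GACCACCCA is in none of the 17 and in 0.225% of all, and the full cAMP response element TGACGTCA, which contains TGACG, in none and in 1.55%. An E2F motif, TTTCGCGC, is in 1 of the 17 (of Bcl2l1) and in 0.256% of all. The p53 half-site is in 2 of the 17 (of Bax and Bmf) and in 7.13% of all. The Bcl2 window is 74.8% G or C and the Bbc3 window 76.4%, against 54.0% for Bmf and a median of 52.4% over all windows.

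None of the 10 members passed the test across all genes (an adjusted p under 0.05 in edgeR's quasi-likelihood test), and 1.60% of the 15422 genes did. At an unadjusted p under 0.05 there were 3 members, Bcl2, Bbc3 and Bmf, beside 19.0% of all genes tested. The same 3 were the members whose knockout libraries all lay above the control libraries in CPM, which held for 12.8% of all genes. Levels per length, given below, added Mcl1, Bax and Bid, on a scale without TMM factors for which the share of all genes was not counted. Fold changes were positive for 9 of the 10, beside 7608 of the 15422 genes tested. The median was 0.09 on the log2 scale, against −0.0036 over all genes tested. By class, the median was 0.08 for the 4 antiapoptotic members, 0.06 for the 2 effectors and 0.28 for the 4 BH3-only members. DESeq2's Wald test called 1 member, Bmf, where it called 6.05% of its genes. The edgeR test with sex as a covariate also called Bmf alone, beside 2.48% of its genes. In a bulk sample, fewer cells of a type and less RNA per cell cannot be told apart.

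**Figure D1:**
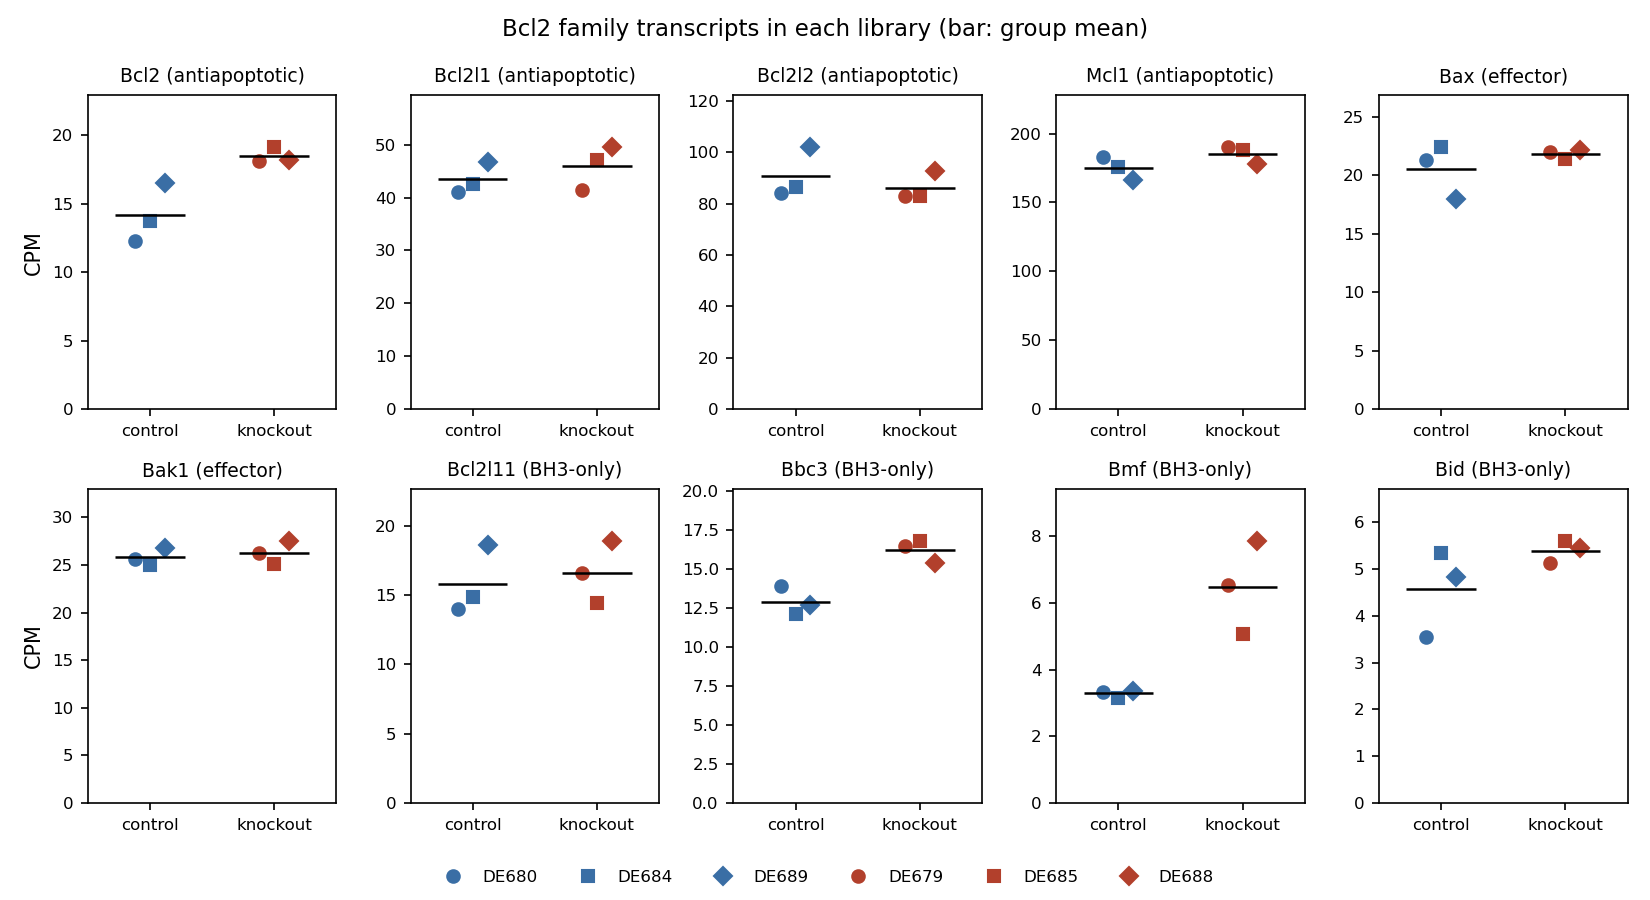
Level of each member in CPM (vertical axes from 0, a scale for each gene) in the 3 control libraries (blue) and the 3 knockout libraries (red), with the group mean as a bar. Knockout libraries lie above every control library for Bcl2, Bbc3 and Bmf, and the groups overlap for the other 7.

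Levels of different genes were compared per length, as TPM, which divides each count by the length of the gene's merged exons. Mcl1, the short-lived guardian of many cell types, was the most abundant member with 149 ± 4.13 TPM in the control (SD, n = 3), followed by Bcl2l2 with 59.3 ± 8.04 TPM. The lowest library for Mcl1 lay above the highest for Bcl2l2, and the lowest for Bcl2l2 above the highest for Bax. Next came Bax with 37.8 ± 3.31 TPM, Bak1 with 31.2 ± 1.92 TPM and Bcl2l1 with 27.6 ± 2.66 TPM, where each overlapped the next in range over the 6 libraries. Bbc3 followed with 17.6 ± 1.24 TPM, apart from both neighbours. Bcl2l11, Bcl2, Bid and Bmf had means of 5.75, 4.51, 3.75 and 1.82 TPM, and each overlapped the next. The gene that names the family was thus the least abundant of the 4 antiapoptotic members, 33-fold below Mcl1 in the control means per length. Merged exons overstate the length where a cell uses a short isoform, so the order of near neighbours depends on the annotation. TPM used no TMM factors. On this scale every knockout library lay above every control for Mcl1, Bax and Bid as well as Bcl2, Bbc3 and Bmf. Knockout means of Mcl1, Bax and Bid were 167 ± 3.71, 42.8 ± 1.2 and 4.68 ± 0.231 TPM. The members without overlap thus depend on the scale, and the share of all genes in TPM was not counted.

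**Figure D2:**
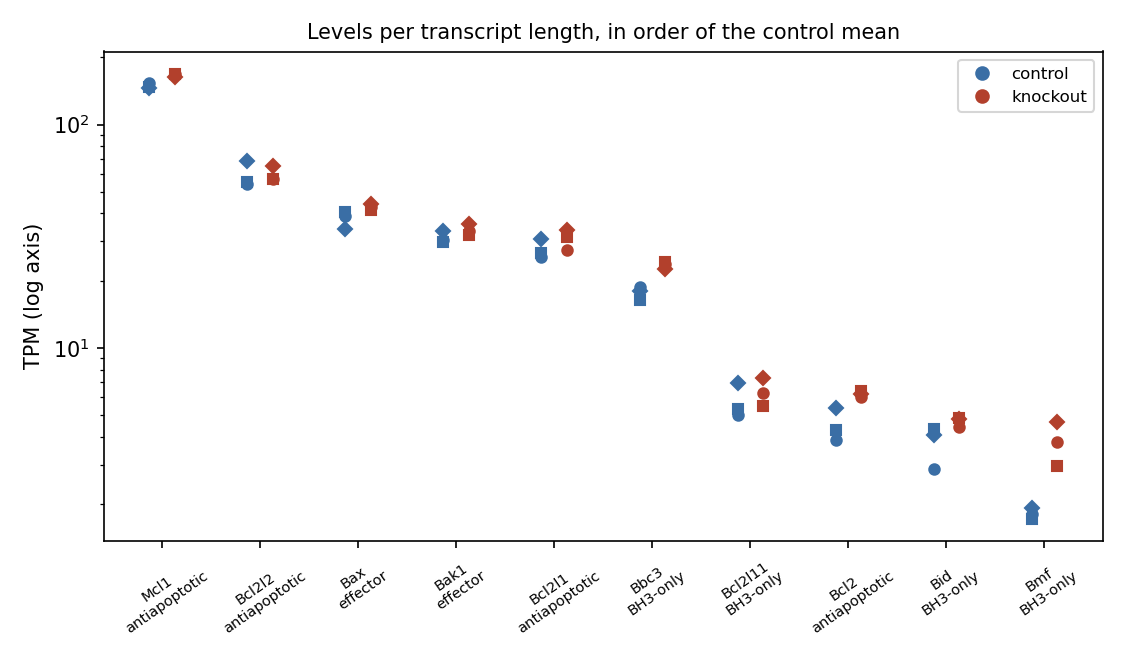
Level per length in TPM (log axis) of the 10 members in order of their control mean, with each of the 3 control (blue) and 3 knockout (red) libraries as a point. Mcl1 leads at 146 to 169 TPM, and Bmf is lowest at 1.72 to 4.67 TPM.

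Bcl2 was the antiapoptotic member with the largest difference. The gene (chromosome 1, 106538178 to 106714274, minus strand, GRCm38) had 18.1, 19.1 and 18.2 CPM in knockout libraries DE679, DE685 and DE688. The control libraries DE680, DE684 and DE689 had 12.3, 13.7 and 16.5 CPM. The knockout libraries lay close together and above all controls, and DE689 was the control nearest to them. Means were 18.5 ± 0.550 and 14.2 ± 2.12 CPM (SD, n = 3 each), which gave a log2 difference of 0.38 (SE 0.12, adjusted p 0.160 in edgeR). That is 1.30-fold with a 95% interval from 1.07 to 1.58, not adjusted for the number of genes. With 1 library left out, the change ran from 0.29 without DE680 to 0.51 without DE689. The edgeR adjusted p ran from 0.121 without DE689 to 0.354 without DE679. Of 9157 exonic bases, 558 overlap exons of D630008O14Rik on the opposite strand, and whether counting used strand is not given in the sources used here.

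The other 3 antiapoptotic members showed no difference in CPM beyond the spread between libraries. Bcl2l1 (chromosome 2, 152780668 to 152831728, minus strand), whose product BCL-XL is a survival factor of epithelial cells, had 41.4, 47.1 and 49.5 CPM in the knockout (DE679, DE685, DE688) and 41.0, 42.5 and 46.8 in the control (DE680, DE684, DE689). DE679 lay among the controls, while DE685 and DE688 lay above them. The log2 fold change was 0.08 (SE 0.09, adjusted p 0.656 in edgeR). Bcl2l2 (chromosome 14, 54883377 to 54888234, plus strand) had 83.0, 83.1 and 92.8 CPM in the knockout and 84.1, 86.6 and 102 in the control. It was the 1 member with a lower knockout mean in CPM, by −0.08 on the log2 scale (SE 0.09, adjusted p 0.683 in edgeR). Without DE689 the sign turned to 0.02, and in TPM the means were 59.6 ± 4.66 for the knockout and 59.3 ± 8.04 for the control. Exons of the readthrough gene Gm20521 share 594 of its 4462 exonic bases on the same strand. Mcl1 (chromosome 3, 95658788 to 95663176, plus strand) had 190, 188 and 178 CPM in the knockout and 183, 176 and 166 in the control. Knockout DE688 lay below control DE680, and the log2 fold change was 0.08 (SE 0.06, adjusted p 0.492 in edgeR). Mcl1 had the most counts of the 10 members and the narrowest interval among them, from 0.962-fold to 1.16-fold.

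Neither effector differed in CPM beyond the spread between libraries. Bax (chromosome 7, 45461697 to 45466898, minus strand) had 22, 21.4 and 22.2 CPM in the knockout and 21.3, 22.4 and 18 in the control. DE689 was the only library apart, and without it the log2 fold change was 0.0033 in place of 0.09 (SE 0.10, adjusted p 0.657 in edgeR). Exons of Gm45808 share 192 of its 1576 exonic bases on the same strand. Bak1 (chromosome 17, 27019810 to 27029009, minus strand) had 26.2, 25.1 and 27.5 CPM in the knockout against 25.6, 25 and 26.8 in the control. Its log2 fold change was 0.03 (SE 0.08, adjusted p 0.871 in edgeR), with a 95% interval from 0.904-fold to 1.15-fold. On the opposite strand, Ggnbp1 overlaps 614 of the 2407 exonic bases of Bak1.

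Bmf had the largest difference of the 10 members. The gene (chromosome 2, 118528757 to 118549687, minus strand), with no exon of another gene over its own, had 6.53, 5.08 and 7.86 CPM in knockout libraries DE679, DE685 and DE688. Control levels were 3.33, 3.16 and 3.37 CPM in DE680, DE684 and DE689. The controls were nearly equal and the knockout libraries spread more widely, all above them. These levels rest on 88 to 202 estimated counts in a knockout library and 72 to 85 in a control library. Means were 6.49 ± 1.39 and 3.29 ± 0.112 CPM (SD, n = 3 each), which gave a log2 difference of 0.98 (SE 0.20, adjusted p 0.0622 in edgeR). In folds this was 1.98, with a 95% interval from 1.43 to 2.73 that is not adjusted for the number of genes. Bmf ranked 316th by p among the genes tested, where the first 247 passed. The DESeq2 Wald test gave an adjusted p of 0.00316 and the edgeR fit with a sex covariate 0.0438. Over all alternatives run the adjusted p ran from 0.00316 to 0.196, the highest without DE688.

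Bbc3 was the second BH3-only member above all controls in CPM. The gene (chromosome 7, 16308393 to 16318205, plus strand), whose product PUMA is a classic target of p53, had 16.5, 16.8 and 15.4 CPM in knockout libraries DE679, DE685 and DE688. The controls had 13.9 CPM in DE680, 12.1 in DE684 and 12.7 in DE689. No library stood apart from its group, with means of 16.2 ± 0.746 and 12.9 ± 0.911 CPM (SD, n = 3 each). On the log2 scale they differed by 0.33 (SE 0.10, adjusted p 0.141 in edgeR), or 1.26-fold with a 95% interval from 1.07 to 1.48.

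Bcl2l11 and Bid overlapped between the groups in CPM. Bcl2l11 (chromosome 2, 128126038 to 128162547, plus strand), which encodes the broad activator BIM, had 16.6, 14.4 and 18.9 CPM in the knockout and 14, 14.9 and 18.6 in the control. DE688 and DE689 were the high library of their groups, and the log2 fold change was 0.07 (SE 0.15, adjusted p 0.834 in edgeR). Its sign turned to −0.01 without DE680 and to −0.03 without DE688. Bid (chromosome 6, 120891930 to 120916853, minus strand), the link from death receptors to mitochondria, had 5.13, 5.60 and 5.45 CPM in the knockout and 3.55, 5.35 and 4.84 in the control. DE680 was low, and the log2 fold change of 0.23 (SE 0.19, adjusted p 0.550 in edgeR) was 0.08 when it was left out. Exons of Bcl2l13 on the opposite strand overlap 628 of the 3550 exonic bases of Bid. Bcl2l13 stood at 162 ± 4.31 CPM for the knockout and 168 ± 7.74 CPM for the control, and the part of its reads in the Bid counts was not tested.

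Each group held 1 library with Y-linked transcripts, DE685 and DE684. A fit on the 4 libraries with Xist gave log2 fold changes of 0.33 for Bcl2, 0.27 for Bbc3 and 1.10 for Bmf, with edgeR adjusted p of 0.364, 0.360 and 0.106.

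**Figure D3:**
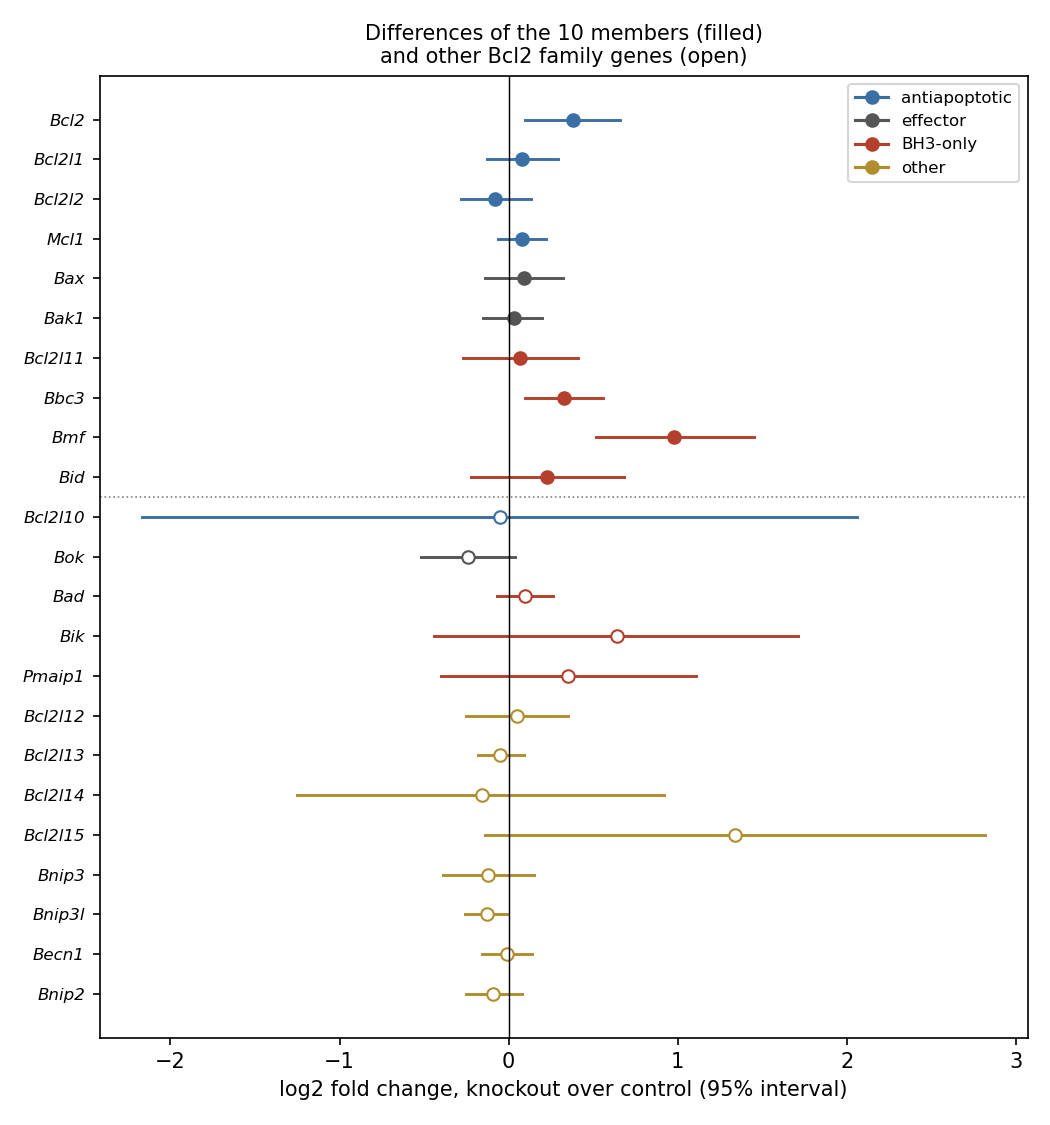
Log2 fold change of knockout over control with its 95% interval, not adjusted for the number of genes, for the 10 members (filled) and 13 other family genes tested (open), coloured by class. Among members the intervals of Bcl2, Bbc3 and Bmf lie above 0, with Bmf at 0.98.

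To set survival against death genes, the mean log2(CPM + 1) of the 4 antiapoptotic members was compared with that of the 6 proapoptotic members in each library. The difference was 2.06, 2.20 and 2.06 in knockout libraries DE679, DE685 and DE688, and 2.21, 2.20 and 2.32 in the controls DE680, DE684 and DE689. DE685 lay among the controls, level with DE684, and the other 2 knockout libraries lay below all controls. Means were 2.11 ± 0.0799 in the knockout and 2.24 ± 0.0638 in the control (SD, n = 3 each), a difference of −0.13 that was given no test because it is a score over chosen genes. With a pseudocount of 5 CPM in place of 1 the difference was −0.07. Per length, the antiapoptotic members made up 69.2% to 70.4% of the summed TPM of the 10 members in the knockout libraries and 70.5% to 71.8% in the controls. Both sums were higher in every knockout library than in any control, on a scale without TMM factors for which the share of all genes was not counted. In CPM the groups overlapped for Mcl1, the largest part of the antiapoptotic sum. The antiapoptotic sum was 260 to 268 against 233 to 250 TPM, and the proapoptotic sum 111 to 119 against 97.7 to 98.3 TPM. Mcl1 alone held 58.2% to 65.2% of the antiapoptotic TPM.

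**Figure D4:**
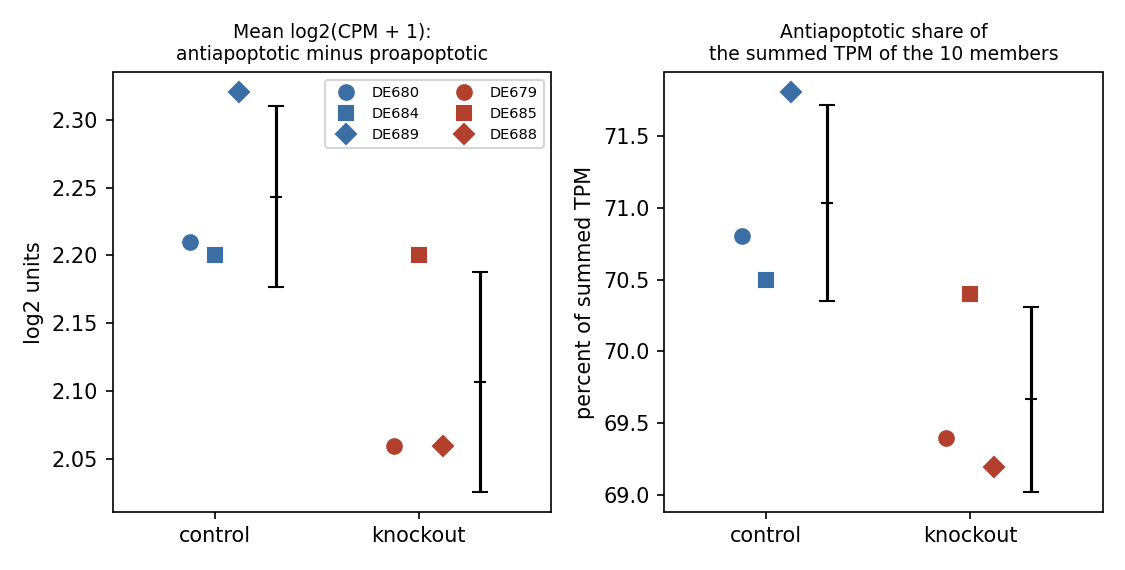
Left, mean log2(CPM + 1) of antiapoptotic minus proapoptotic members in each library; right, antiapoptotic share of the summed TPM in percent. Bars are the mean ± SD of 3 libraries, the vertical axes do not start at 0, and the knockout libraries range from 69.2% to 70.4% against 70.5% to 71.8% in the control.

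Of the 24 pairs of an antiapoptotic with a proapoptotic member, 5 had a lower ratio in every knockout library than in any control and 2 a higher one. That is 29.2% of the pairs, beside 25.6% of single genes whose groups do not overlap in either direction. The pairs share genes, and all 7 hold Bcl2, Bbc3 or Bmf, which do not overlap on their own in CPM, so the counts are a description. All 5 lower ratios had Bmf or Bbc3 as the proapoptotic gene: Bmf against Bcl2l1, Bcl2l2 and Mcl1, and Bbc3 against Bcl2l2 and Mcl1. The log2 ratio of Mcl1 to Bmf was 4.86, 5.21 and 4.50 in the knockout (DE679, DE685, DE688) and 5.78, 5.80 and 5.62 in the control (DE680, DE684, DE689). Every knockout library thus held less Mcl1 per Bmf than any control. Both higher ratios had Bcl2 as the antiapoptotic gene, over Bak1 and over Bcl2l11. For Bcl2 to Bax, the pair most often quoted as a measure of survival, the log2 ratio was −0.28, −0.16 and −0.28 in the knockout and −0.79, −0.70 and −0.12 in the control, where DE689 lay above all knockout libraries. Bcl2 against Bmf overlapped too, at 1.53 ± 0.35 and 2.10 ± 0.20.

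Cells other than interfollicular keratinocytes could share the suspension, and their markers were measured in the same libraries. The 10 hair follicle stem cell markers summed to 2069 to 2435 CPM in the knockout and 1709 to 1956 CPM in the control, and 3 of the 10 passed the test, Nfatc1, Foxc1 and Postn, all higher. At an unadjusted p under 0.05 there were 7 of the 10, all higher, beside 19.0% of all genes tested. Fold changes were positive for 8 and negative for 2, Cd34 at −0.29 and Krt24 at −0.25 on the log2 scale (edgeR adjusted p 0.504 and 0.439). The 9 melanocyte markers summed to 88.3 to 129 against 61.4 to 89.1 CPM, all with a positive fold change, 3 at an unadjusted p under 0.05 and none past the threshold. Melanocytes express Bcl2, and their part in the Bcl2 difference was not tested. Immune cell markers summed to 75.2 to 180 against 39.2 to 152 CPM, with 0 of 10 tested past the threshold in edgeR and 0 at an unadjusted p under 0.05. Differentiated keratinocyte markers summed to 26848 to 36828 against 31469 to 53503 CPM, with 9 of 10 negative, 5 lower at an unadjusted p under 0.05 and none past the threshold. Sebaceous gland markers summed to 6981 to 7813 against 7071 to 8250 CPM, and 1 of 7 passed, Dgat2, which was lower by −0.29 on the log2 scale (SE 0.05, adjusted p 0.0469 in edgeR). The 4 endothelial markers summed to 2.54 to 3.50 against 3.57 to 5.48 CPM, all with a negative fold change (median −0.66), none past the threshold and 0 at an unadjusted p under 0.05. Fibroblast markers summed to 148 to 173 against 67 to 104 CPM. Of 6 tested, 3 had a positive and 3 a negative fold change, and 1 passed, Dcn. It was higher, at 119 ± 6.19 against 31.9 ± 10.1 CPM (log2 fold change 1.90, SE 0.21, adjusted p 0.00782 in edgeR). Lum was under the filter. The collagen genes Col1a1, Col1a2 and Col3a1 had lower means in the knockout, 4.18 to 6.13 against 6.07 to 8.2 CPM, with groups that overlapped. Dissociation stress genes summed to 1206 to 1436 against 1085 to 1474 CPM, with none of 10 past the threshold. The smallest sum of estimated counts of any gene in the deposited table was 10, so no marker in it could be at 0 in all 6 libraries. The skeletal muscle markers Acta1 and Myh4 were not in the table. The part of these cells in the members' differences was not tested.

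The wider apoptosis machinery was followed through 5 lists, which hold 99 distinct genes, 90 of them tested. None of the 90 passed in edgeR, and the smallest adjusted p was 0.0700. An unadjusted p under 0.05 was found for 18 (20%), against 19.0% of all genes tested. Groups did not overlap for 26.7% of the 90, against 25.6% of all genes. The DESeq2 Wald test called 4 of them, where it called 6.05% of its genes. The 4 were all higher: Foxo3, Trp53inp1, Trp63 and Trp73.

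Of the other Bcl2 family genes, 13 of 17 were tested, with a median log2 fold change of −0.05. The smallest unadjusted p belonged to Bnip3l, a mitophagy receptor, with 164, 163 and 160 CPM in the knockout (DE679, DE685, DE688) and 169, 181 and 184 in the control (DE680, DE684, DE689). It was lower without overlap, by −0.13 on the log2 scale (SE 0.06, adjusted p 0.244 in edgeR). Bcl2l15 was next, at 0.715 ± 0.423 against 0.273 ± 0.182 CPM. Its log2 fold change of 1.34 (SE 0.64, adjusted p 0.302 in edgeR) was larger than that of Bmf, but its groups overlapped and it rested on 4 to 20 estimated counts in a library. The third effector, Bok, stood at 80.4 ± 11.1 CPM for the knockout and 94.7 ± 11.3 CPM for the control (SD, n = 3 each), above both Bax and Bak1 in CPM, a scale that does not allow for length. Bad, a BH3-only gene tied to growth factor signalling, had 36.3 ± 2.19 and 34.0 ± 0.488 CPM.

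Downstream of the mitochondrion, 22 caspase, apoptosome, inhibitor and channel genes were tested, 11 with a positive and 11 with a negative fold change (median 0.01). Casp6, an executioner caspase, had 12.7, 13.6 and 14.1 CPM in the knockout (DE679, DE685, DE688) and 11.5, 11.8 and 9.36 in the control (DE680, DE684, DE689). Its groups did not overlap, with a log2 fold change of 0.31 (SE 0.12, adjusted p 0.237 in edgeR). Parp1, a caspase substrate, differed by 0.19 (SE 0.09, adjusted p 0.291 in edgeR) with groups that overlapped. Xiap, the direct inhibitor of executioner caspases, had 95.1 ± 3.23 and 93.6 ± 2.30 CPM.

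Death receptor genes had positive fold changes for all 14 tested, beside 7608 of the 15422 genes of the test. Their median was 0.13, yet none passed in edgeR. Only 1, Casp8, had an unadjusted p under 0.05, beside 19.0% of all genes tested. Casp8, the initiator caspase that cleaves BID, had 26.8, 24.8 and 24.6 CPM in the knockout and 22.8, 22.9 and 21.3 in the control. The log2 fold change was 0.18 (SE 0.08, adjusted p 0.260 in edgeR). Mlkl, the executor of necroptosis, had 4.32 ± 0.304 against 3.31 ± 0.284 CPM (edgeR adjusted p 0.286). Both genes, and no other of the 14, were higher in every knockout library than in any control. That held for 12.8% of all genes tested.

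Among 25 upstream regulators, 9 had an unadjusted p under 0.05, beside 19.0% of all genes tested. Of the 9, 6 were higher and 3 lower, and none passed after adjustment. Foxo3, a forkhead factor known to drive Bcl2l11 and Bbc3, had 108, 109 and 112 CPM in the knockout (DE679, DE685, DE688) and 92.7, 92.7 and 93.1 in the control (DE680, DE684, DE689). Both groups were tight and apart, with a log2 fold change of 0.24 (SE 0.05, adjusted p 0.0700 in edgeR). Trp63, the master regulator of stratified epithelium, had 649 ± 8.54 against 552 ± 24.8 CPM, a log2 fold change of 0.23 (SE 0.06, adjusted p 0.104 in edgeR). Of 17 p53 targets, 6 had an unadjusted p under 0.05, beside the same 19.0% of all genes. Of the 6, 1 was higher and 5 lower, and the list median was −0.02. The higher gene was Trp53inp1, with 113 ± 6.38 against 81.5 ± 12.4 CPM (edgeR adjusted p 0.0860). Tigar, next by p, was lower at 14.1 ± 0.680 against 17.8 ± 1.24 CPM (edgeR adjusted p 0.137). Cdkn1a and Mdm2, the best known p53 targets and named here after their values were seen, had fold changes of −0.01 and −0.14 on the log2 scale, with edgeR adjusted p of 0.971 and 0.327.

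**Figure D5:**
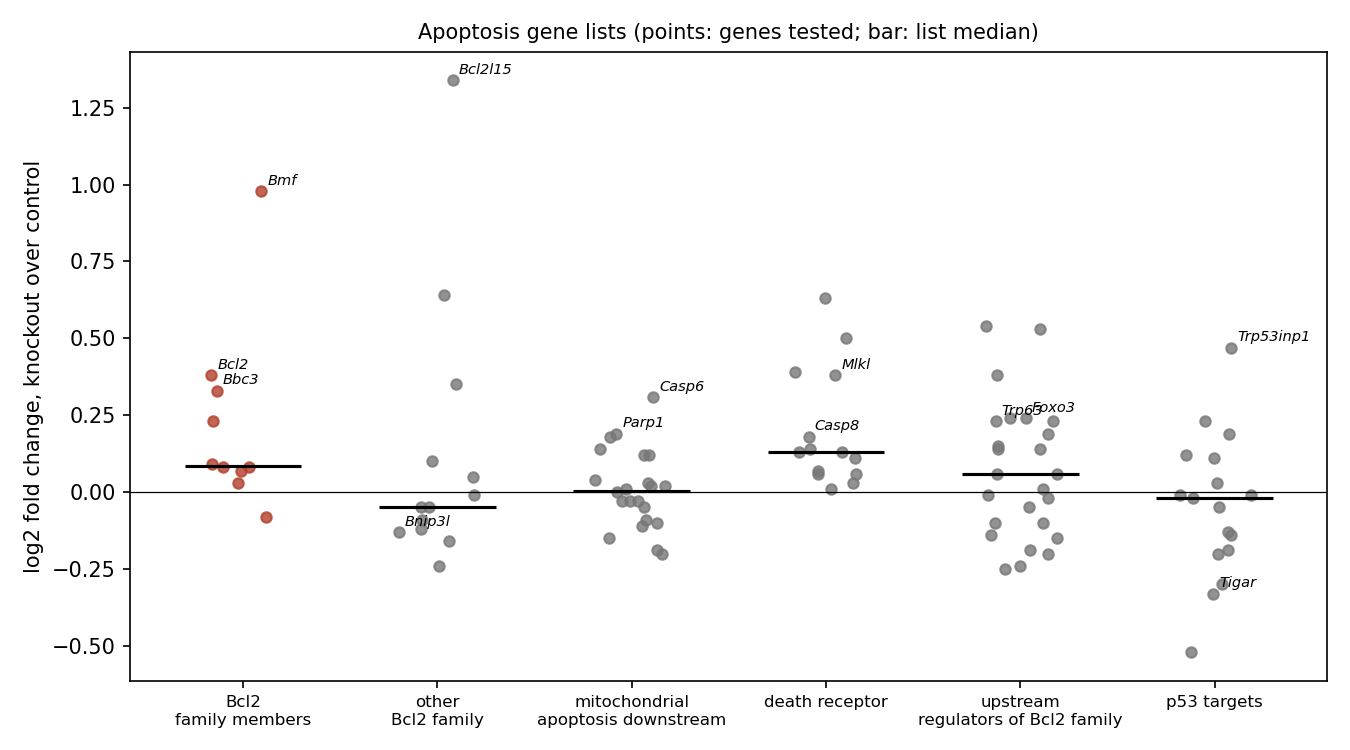
Log2 fold change of knockout over control for each gene tested among the members and the 5 apoptosis lists, with the list median as a bar. None of these genes passed an adjusted p of 0.05 in edgeR, and medians lie between −0.05 and 0.13.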

How the data were processed

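The authors deposited estimated counts per gene and a normalized signal per gene. Per the submitters' processing notes, bcl2fastq 2.20, cutadapt 1.18, STAR 2.7.0f, Partek and the build mm10 were used, and the annotation and the strand setting are not given in the sources used here. In the deposited normalized signal, values follow the counts by one factor per library and a small offset. Column names give knockout or control but no title, so columns were assigned to groups only. Estimated counts (53.0% to 57.7% whole per library) were rounded, though the design foresaw whole counts. Low counts were removed with filterByExpr of edgeR 4.0.16, and genotype was tested by the quasi-likelihood functions with TMM factors and Benjamini-Hochberg adjustment over 15422 genes. SEs are fold changes divided by the root of F. An exact permutation test (two-sided) of 3 against 3 reaches 0.1 at best. TPM used merged exons of GENCODE M21 (19104 of 19618 genes matched by symbol), and promoter sequences are from RefSeq (GRCm38.p6), which held all 10 members.

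Alternatives were factors by RLE or upper quartile, no filter or a 1 CPM mean, the DESeq2 1.42.0 Wald test, limma-voom and limma 3.58.1 on log2 of the authors' normalized signal plus 1, a sex covariate (read from Xist and Y-linked genes), each library left out in turn, and, chosen after seeing the data, the 4 libraries with Xist. On simulated data for this comparison with 15352 genes tested, the fit recovered 64.6% of 2-fold and 90.0% of 4-fold changes. It made 15 false calls beside 154 calls of changed genes in the right direction. All 10 members were named whatever their values, and of each apoptosis list the genes past the threshold or, with none, the 2 smallest unadjusted p. The members and lists were chosen with earlier results of these data known.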

Additional observations from a re-analysis of the deposited data

How the results depend on the processing

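Counts of calls depended on the method. With DESeq2, 879 genes passed in all (64.7% higher, against 77.7% of the 247 in edgeR), with 1 member (Bmf) and 4 apoptosis list genes, against 0 and 0. Its 905 adjusted p-values given as NA were left out. With the sex covariate, 396 genes passed, with 1 member (Bmf, log2 fold change 0.97) and 2 list genes (Trp53inp1 and Trp73). The 4 libraries with Xist gave 87 genes and no member. Leaving out one library gave 69 to 121 genes, no member and 0 to 1 list genes (Trp53inp1, without DE684). The cause of these shifts was not tested, beyond the smaller number of libraries in the latter fits. In fits with one library left out, signs turned for Bcl2l11 (−0.03 to 0.20), Bak1 (−0.01 to 0.06) and Bcl2l2 (−0.13 to 0.02). Over 150 member results under alternatives, 144 kept direction and side of the threshold, 2 were stronger (Bmf at 0.99 with DESeq2 and 0.97 with the sex covariate) and 4 reversed. The antiapoptotic minus proapoptotic difference stayed negative and moved by less than the spread between replicates (0.0723) under every alternative run, yet ranged from −0.07 with a pseudocount of 5 CPM to −0.19 with the median over members, against −0.13. No paired analysis was possible because the columns carry no replicate numbers. At this depth a floor of 3 counts corresponds to 0.117 to 0.173 CPM, counting error only.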

Other observations

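Several death and survival genes fell under the filter on low counts and entered no test. Bcl2a1b, an antiapoptotic gene best known from leukocytes, had 6, 3 and 10 estimated counts in the knockout (DE679, DE685, DE688) and 0, 3 and 0 in the control (DE680, DE684, DE689). Its near-identical copy Bcl2a1d had 11, 1 and 7 against 4, 4 and 3, and how reads were divided between such copies is not given in the sources used here. Tnfsf10, the death ligand TRAIL, had 25, 0 and 19 counts in the knockout and 3, 0 and 2 in the control. Its 2 zero libraries are DE685 and DE684, the ones with Y-linked transcripts. They were also the lowest of their groups for the immune cell marker Cd74 (33.7 and 17 CPM), and DE685 had the lowest library total. Whether sex, immune cells or depth goes with the zeros was not tested. Traf1, an adaptor of the TNF receptors, had 17, 7 and 7 against 2, 2 and 8. Hrk, a BH3-only gene of neurons, had 2, 4 and 6 against 3, 0 and 3.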
